A study of Homo sapiens with 92 samples.

Results

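New RNA was followed through the later hours of G1 in human cells given a degrader of NIPBL from mitosis on, by comparing cells 8 h after release from a mitotic block with cells 4 h after it. The cells were hTERT RPE-1, a telomerase-immortalised retinal pigment epithelial line, of the single clone NIPBL-D7 with the genotype mGreenLantern-P2A-FKBP12(F36V)-NIPBL, in which NIPBL carries an FKBP12(F36V) degron. The compound dTAGV-1 recruits a ubiquitin ligase to that degron, and DMSO is its vehicle. Both groups, dTAG and DMSO, carried the tagged protein, had been synchronised with 2 mM thymidine given in repeated blocks, and received drug or vehicle for 120 min together with nocodazole at 20 ng/ml before mitotic shake-off and release into the same drug or vehicle. By 4, 6 and 8 h after release the cells had thus spent 6, 8 and 10 h with drug or vehicle. During the last 15 min of that time they took up 4-thiouridine (4sU) at 100 µM, a uridine analogue whose sites in newly made RNA are read as T-to-C conversions after alkylation, a method called SLAM-seq. Selected by title were the 6 dTAG libraries of this labelling time, 2 each at 4, 6 and 8 h, of 92 in the series, and 6 DMSO libraries of the same times were set beside them. The labels do not say whether replicates came from separate cultures, so the p-values below measure the spread between these libraries, which may be technical.

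NIPBL activates cohesin, the ring complex that extrudes loops of DNA and so can bring distant regulatory elements near promoters. After mitosis, cells pass through G1, in which transcripts of mitosis fade, growth-factor signalling acts through D-type cyclins and their kinases on the retinoblastoma proteins, and E2F transcription factors are then released to switch on genes for DNA replication. RPE-1 cells are a common model for studying G1 because they are not transformed and keep a working p53 pathway.

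The quantity compared was the count of reads with a T-to-C conversion, called converted reads, per gene. Its level is given as CPM, the count of the gene scaled to a common total of converted reads per library, which is not scaled to gene length, so no level is compared between genes. The dTAG libraries held 3.86 M and 2.74 M converted reads at 4 h, 2.97 M and 3.65 M at 6 h, and 4.36 M and 4.58 M at 8 h, and the DMSO libraries held 4.28 M to 6.17 M, with M standing for 1e6 reads. Converted reads made up 8.14% ± 1.14 of all reads at 8 h and 6.17% ± 0.620 at 4 h with dTAG (SD, n = 2 each), a difference of 1.98 percentage points. The groups did not overlap, but 2 libraries against 2 cannot pass 0.05 (two-sided exact permutation p = 0.333, the smallest possible). With DMSO the shares were 8.34% ± 1.01 at 8 h and 6.03% ± 0.320 at 4 h. Not every converted read need come from 4sU: among genes with at least 1000 reads, the lowest 1% of genes in each library had up to 1.34% to 1.82% converted reads, and no library without 4sU was used here. New RNA of NIPBL itself had 405 and 349 CPM at 8 h and 382 and 333 CPM at 4 h with dTAG, a log2 change of 0.07 ± 0.13 (SE) that did not pass the test (edgeR's quasi-likelihood test, adjusted p = 0.779). The degron acts on the protein, so this level does not check the depletion.

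The labelled cell type was read through markers. Of 15 markers of retinal pigment epithelium, MITF, OTX2, PAX6, LRAT, MERTK and BEST1 had converted reads in every dTAG library, while TYRP1, TTR and RGR were at 0 and RPE65, RLBP1, TYR, PMEL, DCT and SERPINF1 had at most 2 converted reads. The list summed to 415 to 428 CPM at 8 h and 479 to 480 CPM at 4 h. Markers of fibroblasts and smooth muscle summed to 129 to 172 CPM at 8 h and 211 to 236 CPM at 4 h, and neuronal markers to 1151 to 1189 CPM at 8 h and 1062 to 1218 CPM at 4 h, nearly all of it SYT1 and MAP2. In all 6 dTAG libraries, cardiomyocyte markers summed to at most 6.11 CPM, pluripotency markers to at most 14.6 CPM and endothelial markers to at most 16.5 CPM. These are bulk samples, in which fewer cells in a state and less RNA per cell cannot be told apart.

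From 4 to 8 h with dTAG, new RNA of 863 genes fell and that of 911 genes rose, of 14570 genes tested (12.2% called, 5.92% lower and 6.25% higher, edgeR's quasi-likelihood test at an adjusted p of 0.05). Those that fell included mitotic genes, condensin subunits, immediate early genes and replication genes, and those that rose had a longer median span. The split depends on the scale, because each library was scaled to its own converted reads. With library sizes taken from all reads, the median change of all genes moved to 0.44 on the log2 scale, against -0.0001, and 268 genes fell and 3416 rose. All changes below are therefore relative to the typical gene. Without dTAG 4 h replicate 1 the count of called genes was 782, without 4 h replicate 2 it was 769, without 8 h replicate 1 it was 913 and without 8 h replicate 2 it was 1005.

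The change ran through the 6 h libraries. The 6 h mean lay between the 8 h and 4 h means for 830 of the 911 genes that rose (91.1%) and for 778 of the 863 that fell (90.2%), and by 6 h the median gene had covered 52.0% and 51.7% of its change. This is a description, since the 4 and 8 h libraries that frame it also chose the genes. Tested by itself, the step from 4 to 6 h called 194 genes lower and 123 higher (2.18% of genes, 1.33% lower and 0.844% higher), and the step from 6 to 8 h called 55 lower and 90 higher (0.995%, 0.377% lower and 0.618% higher). The 2 steps share the 6 h libraries. The second step rested on single libraries: without 6 h replicate 1 or without 8 h replicate 1 edgeR called 0 genes, with 1206 and 1377 genes at an unadjusted p under 0.05, without 8 h replicate 2 it called 60, and DESeq2 called 253 on all libraries. With library sizes from all reads 38 fell and 2123 rose in that step. On that scale the median change of all genes was 0.42 from 6 to 8 h and 0.03 from 4 to 6 h. The first step called 55 genes without 4 h replicate 1, 101 without 4 h replicate 2, 151 without 6 h replicate 1 and 53 without 6 h replicate 2.

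In DMSO cells the same interval called 980 genes lower and 961 higher (13.3%, 6.73% lower and 6.6% higher), in libraries that the dTAG comparison does not share. These were 202 and 6515 with library sizes from all reads. Of the 911 genes that rose with dTAG, 486 (53.4%) also rose with DMSO, where they made up 50.6% of the rises. Of the 863 that fell with dTAG, 481 (55.7%) also fell with DMSO, 49.1% of the falls there. By sign alone, called or not, 869 of the 911 (95.4%) lay above 0 with DMSO and 790 of the 863 (91.5%) below 0. Among all tested genes 50.3% lay below 0 with DMSO. Only 17 genes fell with dTAG and rose with DMSO, and 6 did the reverse. The difference between the changes was tested directly, as dTAG 8 h over 4 h minus DMSO 8 h over 4 h. It passed for 83 genes (0.57%), of which 58 moved lower with dTAG (0.398%) and 25 higher (0.172%). These were 76 and 6 with library sizes from all reads. Without dTAG 4 h replicate 1, 4 h replicate 2, 8 h replicate 1 and 8 h replicate 2 the count was 26, 41, 52 and 33, and without DMSO 8 h replicate 1 and replicate 2 it was 27 and 43.

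**Figure D1:**
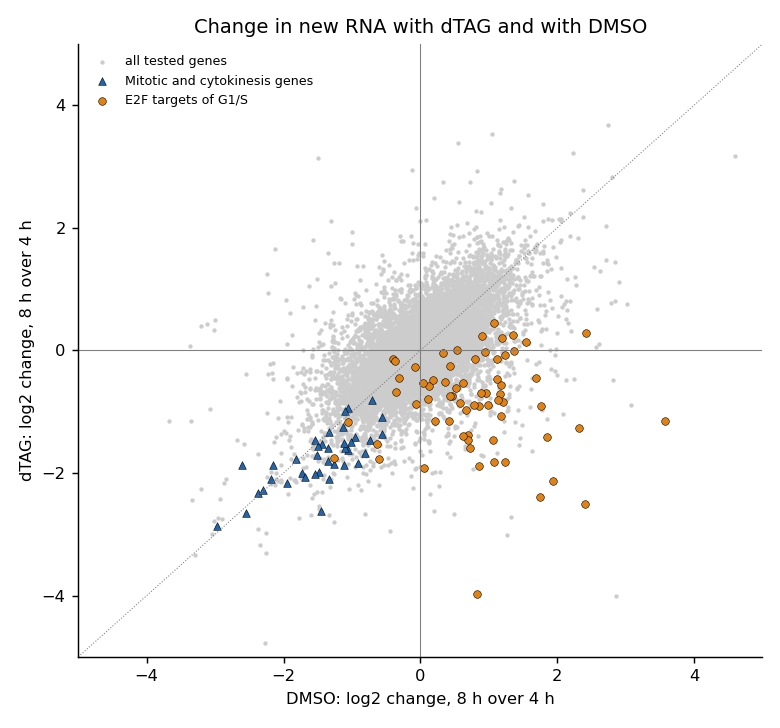
Log2 change in new RNA from 4 to 8 h with dTAG (vertical axis) against that with DMSO (horizontal axis), 1 point per tested gene, with mitotic and cytokinesis genes as triangles and E2F targets of G1/S as circles; 5 genes lie outside the axes and the dotted line marks equal change. Mitotic genes lie in the lower left with both treatments, while most E2F targets lie below 0 with dTAG and above 0 with DMSO, where their median is -0.14 in all reads. All values are relative to the converted reads of each library, and with library sizes from all reads the medians of both lists keep their signs with dTAG.

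Among converted reads, replication genes driven by E2F moved in opposite directions with dTAG and DMSO. Of 66 tested genes of a list of E2F targets of G1/S, 23 fell from 4 to 8 h with dTAG and 0 rose, against 1 that fell and 35 that rose with DMSO. Their median log2 change was -0.77 with dTAG, against -0.0001 for all genes, and 0.82 with DMSO, against -0.0031 for all genes. The direct test of the difference passed for 20 of the 66, each lower with dTAG, and these were 20 of the 58 genes of that sign. With library sizes from all reads, 16 fell and 0 rose with dTAG at a median of -0.33. In all reads the direction with DMSO turned: 54 fell and 1 rose with dTAG, at a median of -1.29, and 13 fell and 6 rose with DMSO, at a median of -0.14, and the difference passed for 8. Relative to all reads of the same gene, 0 fell and 6 rose with dTAG, 0 fell and 45 rose with DMSO, and the difference passed for 1. The count of 23 was 14 without dTAG 4 h replicate 1, 14 without 4 h replicate 2 and 13 without 8 h replicate 2, and the count of 20 was 10 without dTAG 4 h replicate 1, 9 without dTAG 8 h replicate 2 and 8 without DMSO 8 h replicate 1.

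DTL, at chr1:212035553-212107400 on the plus strand of hg38, encodes the substrate receptor of the ubiquitin ligase that destroys the licensing factor CDT1 in S phase. Its new RNA had 21.0 and 22.8 CPM at 4 h, 14.1 and 10.9 CPM at 6 h, and 9.30 and 7.09 CPM at 8 h with dTAG. With DMSO it had 18.9 and 26.7 CPM at 4 h, 35.9 and 35.3 CPM at 6 h, and 83.8 and 79.8 CPM at 8 h. The dTAG and DMSO libraries overlapped at 4 h and stood apart at 6 and 8 h. DTL fell with dTAG (log2 change -1.42 ± 0.23 SE, adjusted p = 0.000679) and rose with DMSO (1.86 ± 0.18, adjusted p = 6.07e-06), and the difference was -3.27 ± 0.29 (adjusted p = 3.96e-05). When taken relative to all reads of the gene, its change with dTAG was 0.26 (adjusted p = 0.562) and the difference of -1.01 did not pass (adjusted p = 0.237).

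BRIP1, a helicase of DNA crosslink repair, had 60.0 and 45.6 CPM at 4 h, 22 and 12.5 CPM at 6 h, and 14.2 and 14.6 CPM at 8 h with dTAG. With DMSO it had 33.5 and 32.1 CPM at 4 h, 25.2 and 26.9 CPM at 6 h, and 65.3 and 53.4 CPM at 8 h. Most of the fall with dTAG was thus already present at 6 h, when the DMSO libraries had not yet risen. The fall with dTAG was -1.88 ± 0.22 (adjusted p = 4.26e-05) and the difference from DMSO was -2.74 ± 0.29 (adjusted p = 0.000334).

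MCM4, a subunit of the replicative helicase, had 28.8 and 30.8 CPM at 4 h, 22.3 and 20.8 CPM at 6 h, and 7.68 and 7.92 CPM at 8 h with dTAG, against 30.4 and 34.9 CPM at 4 h, 33.1 and 21.1 CPM at 6 h, and 39.2 and 28.4 CPM at 8 h with DMSO. It fell with dTAG by 1.93 ± 0.25 on the log2 scale (adjusted p = 0.000117), and its change with DMSO was 0.06 ± 0.20, which did not pass. Only 1.81% of its reads were converted at 8 h and 1.79% at 4 h, near the level of the lowest genes, whereas for DTL the shares were 7.39% and 4.68%. How much of the MCM4 count came from 4sU was not tested.

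Among genes with a mean log2 CPM of at least 3, MND1, XRCC2 and WDR76 also had strongly negative differences. MND1, a factor of meiotic recombination, had 5.35 and 2.71 CPM at 8 h and 16.1 and 8.33 CPM at 4 h with dTAG, and 19.5 and 16.9 CPM at 8 h and 7.10 and 4.33 CPM at 4 h with DMSO. XRCC2, a factor of homologous recombination, had 4.42 and 2.92 CPM at 8 h and 10.8 and 10.5 CPM at 4 h with dTAG, and 18.4 and 18.1 CPM at 8 h and 8.19 and 4.84 CPM at 4 h with DMSO. WDR76 had 4.19 and 2.5 CPM at 8 h and 11.3 and 9.77 CPM at 4 h with dTAG, and 26.9 and 19.9 CPM at 8 h and 10.7 and 10.7 CPM at 4 h with DMSO. For each of the 3, both 8 h libraries lay below both 4 h libraries with dTAG and above them with DMSO, and the differences were -3.28, -2.99 and -2.80. The same libraries chose these genes, and 862 of the 863 genes called lower with dTAG had no overlap, so the separation is a description. The calls of the difference did not hold for MND1 without dTAG 4 h replicate 1 (adjusted p = 0.104), or for WDR76 without dTAG 4 h replicate 1 (0.0837) or without dTAG 8 h replicate 2 (0.0743). In all reads, the difference did not pass for MND1 (-1.03), XRCC2 (-1.83) or BRIP1 (-1.39). Nor did it pass relative to all reads of the gene for XRCC2 (-1.20, adjusted p = 0.320) or WDR76 (-0.86, adjusted p = 0.946).

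**Figure D2:**
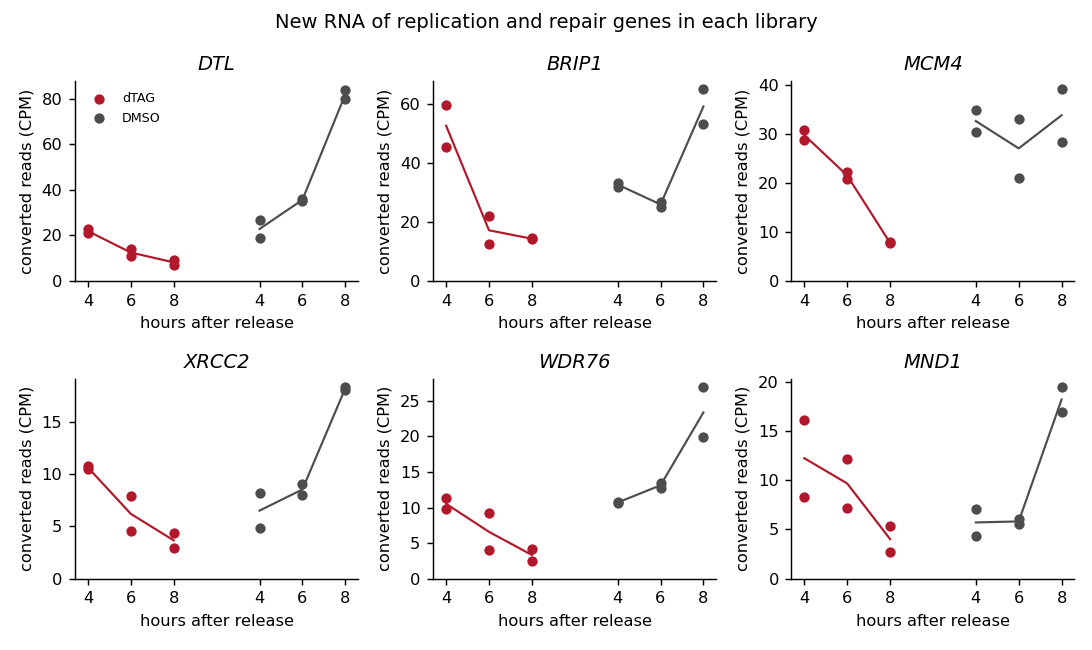
Converted reads (CPM, vertical axes) of 6 replication and repair genes at 4, 6 and 8 h after release, 1 point per library and lines through the means of 2, with dTAG on the left and DMSO on the right of each panel. DTL reached 83.8 and 79.8 CPM at 8 h with DMSO and 9.30 and 7.09 CPM with dTAG, and MCM4 stayed within 21.1 to 39.2 CPM with DMSO.

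Some members had very few reads. CCNE2, which encodes a cyclin E that partners the kinase of S-phase entry, had 0 and 3 converted reads at 8 h and 9 and 4 at 4 h with dTAG, and 89 and 75 at 8 h and 11 and 12 at 4 h with DMSO. E2F1, the founding activator of the family, had 1 and 5 converted reads at 8 h and 11 and 12 at 4 h with dTAG, and 76 and 52 at 8 h and 21 and 8 at 4 h with DMSO. CDT1, which licenses replication origins, had 1 and 0 at 8 h and 9 and 5 at 4 h with dTAG, and 14 and 17 at 8 h and 6 and 7 at 4 h with DMSO. All 3 passed the test with dTAG (adjusted p = 0.0424, 0.0182 and 0.0105, edgeR), at counts too low for a stable fold. CDT1 did not pass with DMSO (adjusted p = 0.318), and its difference did not pass (adjusted p = 0.0616), whereas the differences of CCNE2 and E2F1 did (adjusted p = 0.0113 and 0.0119).

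Promoters of these genes were searched for the E2F motif, spelled TTTGGCGC, TTTGCCGC, TTTCGCGC or TTTCCCGC, on both strands of RefSeq promoters (GRCh38.p14, 250 bases before to 50 after the start). One of these spellings occurred in 27 of 55 promoters found for the list (49.1%) and in 20 of 49 found for the 58 genes with a lower difference (40.8%), against 530 of 9872 promoters of tested genes (5.37%) and 0 of 17 for the 25 genes with a higher difference. Of the 58 genes, 20 belong to the E2F list, so these shares are not independent of each other. How many of the matches among the 58 lie in list members was not counted. A match is a description of the letters and not a bound site. The promoters of MND1, DTL and XRCC2 are printed, with the match in capitals, as those with the most negative differences at a mean log2 CPM of at least 3, and each holds 1 match near its start. They lie at chr4:153344438-153344737 on the plus strand for MND1, chr1:212035498-212035797 on the plus strand for DTL and chr7:152676092-152676391 on the minus strand for XRCC2.
MND1: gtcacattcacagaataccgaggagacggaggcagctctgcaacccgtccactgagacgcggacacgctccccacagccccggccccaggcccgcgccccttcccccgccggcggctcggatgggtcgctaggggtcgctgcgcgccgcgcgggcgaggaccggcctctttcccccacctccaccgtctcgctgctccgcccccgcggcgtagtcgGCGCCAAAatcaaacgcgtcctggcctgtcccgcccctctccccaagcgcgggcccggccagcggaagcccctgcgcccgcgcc
DTL: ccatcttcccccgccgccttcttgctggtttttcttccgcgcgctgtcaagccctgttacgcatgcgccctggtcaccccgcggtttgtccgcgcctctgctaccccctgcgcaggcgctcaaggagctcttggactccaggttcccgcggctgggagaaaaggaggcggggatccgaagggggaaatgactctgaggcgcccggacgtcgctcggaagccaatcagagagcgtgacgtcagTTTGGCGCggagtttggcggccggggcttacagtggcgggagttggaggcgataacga
XRCC2: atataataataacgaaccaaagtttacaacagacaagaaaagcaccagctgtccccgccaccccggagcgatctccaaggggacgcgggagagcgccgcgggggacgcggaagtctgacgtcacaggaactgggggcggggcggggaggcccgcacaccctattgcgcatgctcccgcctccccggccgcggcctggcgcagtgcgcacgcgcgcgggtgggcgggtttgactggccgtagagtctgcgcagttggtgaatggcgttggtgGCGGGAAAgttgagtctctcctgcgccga

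Upstream of E2F, the D-type cyclins, their kinases, the CDK inhibitors and the retinoblastoma proteins gave no call with dTAG. Of 14 tested genes 0 fell and 0 rose with dTAG, at a median of 0.13, and 1 rose with DMSO. For a list of 14 these counts are near the share called among all genes with dTAG (5.92% lower and 6.25% higher). They do not show that the genes stayed level. With library sizes from all reads 5 rose, CDK6 and CDKN1B among them, and in all reads 4 fell and 1 rose. CCND1, the cyclin that couples growth signals to the cycle, had 207 and 203 CPM at 8 h and 240 and 264 CPM at 4 h with dTAG (log2 change -0.29 ± 0.14, adjusted p = 0.203). CDK6, its kinase, had 689 and 667 CPM at 8 h and 583 and 540 CPM at 4 h (0.27 ± 0.14, adjusted p = 0.239). CDKN1A, the p53-responsive inhibitor p21, had 136 and 139 CPM at 8 h and 158 and 192 CPM at 4 h (-0.35 ± 0.16, adjusted p = 0.184). CDKN1B, the inhibitor p27, had 87.2 and 66.3 CPM at 8 h and 61.9 and 50.3 CPM at 4 h (0.44 ± 0.18, adjusted p = 0.126). These 4 were chosen after their values were seen, and none passed the test.

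Mitotic and cytokinesis genes fell as a body. Of 38 tested, 36 fell and 0 rose with dTAG, at a median log2 change of -1.74, and 32 fell and 0 rose with DMSO, at a median of -1.35. The direct test of the difference passed for 0 of the 38 with edgeR and with DESeq2. The count of falls was 23 without dTAG 4 h replicate 1 and 24 without 8 h replicate 2, and with library sizes from all reads it was 34, at a median of -1.29. KIF20A, a kinesin of the cytokinetic furrow at chr5:138178719-138187715 on the plus strand of hg38, had 104 and 118 CPM at 4 h, 50.6 and 45.0 CPM at 6 h, and 13.3 and 17.1 CPM at 8 h with dTAG, so that no 2 times overlapped. It fell by 2.86 ± 0.20 with dTAG (adjusted p = 3.58e-07) and by 2.98 ± 0.19 with DMSO (adjusted p = 1.15e-07).

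CDC20, the activator of the anaphase-promoting complex, had 5.12 and 5.42 CPM at 8 h and 33.9 and 32.9 CPM at 4 h with dTAG, a change of -2.66 ± 0.32 (adjusted p = 4.95e-05). NUSAP1, which bundles spindle microtubules, had 11.4 and 8.96 CPM at 8 h and 87.9 and 35.1 CPM at 4 h (-2.62 ± 0.36, adjusted p = 0.000173), and its 4 h libraries lay far apart. DLGAP5, another spindle factor, had 15.4 and 18.1 CPM at 8 h and 89.5 and 78.9 CPM at 4 h (-2.33 ± 0.19, adjusted p = 1.67e-06). These genes carried few conversions at either time. The converted share was 1.92% at 8 h and 1.99% at 4 h for KIF20A, and 1.63% and 1.49% for CDC20, close to the lowest genes of the libraries. In all reads the change was -2.57 for KIF20A and -2.50 for CDC20. Relative to all reads of the same gene, 2 of the 38 mitotic genes fell and 1 rose. How much of these converted counts came from 4sU was not tested.

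Promoters of the mitotic list were searched for the cell-cycle homology region, TTTGAA, to which the DREAM and FOXM1-MuvB complexes are known to bind, on both strands. It occurred in 22 of 32 promoters found for the list (68.8%) and in 5 of 7 found for condensin subunits, against 1024 of 9872 for tested genes (10.4%), while the E2F motif occurred in 3 of the 32. CDC20 at chr1:43358731-43359030 and NUSAP1 at chr15:41332631-41332930, both on the plus strand of GRCh38.p14, are shown as the 2 members of the list with a match and the largest falls, and capitals mark TTTGAA or its reverse complement.
CDC20: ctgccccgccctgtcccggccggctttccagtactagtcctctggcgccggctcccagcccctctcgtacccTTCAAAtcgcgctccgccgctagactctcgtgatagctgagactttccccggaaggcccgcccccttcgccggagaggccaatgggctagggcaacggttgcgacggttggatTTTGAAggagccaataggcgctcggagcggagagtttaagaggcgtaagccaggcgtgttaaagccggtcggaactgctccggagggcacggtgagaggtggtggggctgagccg
NUSAP1: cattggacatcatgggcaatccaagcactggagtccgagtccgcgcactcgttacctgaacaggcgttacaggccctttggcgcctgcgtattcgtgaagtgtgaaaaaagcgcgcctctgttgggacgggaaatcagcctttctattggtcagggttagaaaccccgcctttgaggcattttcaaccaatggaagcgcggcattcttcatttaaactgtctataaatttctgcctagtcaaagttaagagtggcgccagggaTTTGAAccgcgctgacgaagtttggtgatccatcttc

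Condensins, the relatives of cohesin that compact mitotic chromosomes, moved with the mitotic genes with dTAG. Of 8 subunits, 7 fell and 0 rose, at a median of -1.17, against 3 that fell with DMSO, at a median of -0.53. In all reads 8 fell with dTAG, at a median of -1.36, and 7 with DMSO, at a median of -1.16, and when set relative to all reads of the same gene 0 fell and 1 rose with dTAG. NCAPG, a HEAT-repeat subunit of condensin I, had 20.0 and 14.2 CPM at 8 h and 50.8 and 47.1 CPM at 4 h with dTAG (-1.53 ± 0.22, adjusted p = 0.000246). NCAPH, the kleisin of condensin I, had 7.21 and 6.04 CPM at 8 h and 28.5 and 18.1 CPM at 4 h with dTAG, against 14.2 and 10.2 CPM at 8 h and 19.1 and 13.5 CPM at 4 h with DMSO. NCAPH fell by 1.83 ± 0.34 with dTAG (adjusted p = 0.00179), a call that was lost without dTAG 4 h replicate 1 (adjusted p = 0.0534). The direct difference passed for NCAPG2 of condensin II alone, named after its value was seen (-1.03, adjusted p = 0.0472), and not with DESeq2. The count of 7 was 4 without dTAG 4 h replicate 1 and 4 with library sizes from all reads.

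Among 20 genes of cohesin and its regulators, 5 fell and 1 rose with dTAG, at a median of -0.04 that was 0.40 with library sizes from all reads. The shares called among all genes were 5.92% lower and 6.25% higher. ESCO2, the acetyltransferase that establishes cohesion in S phase, had 1.86 and 1.46 CPM at 8 h and 7.26 and 6.52 CPM at 4 h with dTAG (-2.05 ± 0.39, adjusted p = 0.00246), and 6.64 and 4.60 CPM at 8 h and 6.01 and 6.36 CPM at 4 h with DMSO. Its difference of -1.92 from DMSO did not pass (adjusted p = 0.122). SGO1, which protects centromeric cohesion, fell by 1.41 ± 0.32 (adjusted p = 0.00858), a call lost without dTAG 4 h replicate 1 (0.119) or 8 h replicate 2 (0.0976). The count of 5 was 2 without dTAG 4 h replicate 1 or 8 h replicate 2, and 3 without either of the other two. The members that passed were SMC1A, SGO1, PTTG1, RAD21 and ESCO2 among the falls and PDS5B as the rise, and WAPL, STAG1, PDS5A, SMC3 and MAU2 did not pass, with log2 changes of 0.05, -0.01, 0.06, 0.09 and 0.24.

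Replication-dependent histones, whose transcripts rise with DNA synthesis, did not rise. Of 31 tested, 7 fell and 0 rose with dTAG, at a median of -0.80, and 5 fell and 0 rose with DMSO. With library sizes from all reads 3 fell and 1 rose. The count of 7 was 3, 2, 2 and 4 without dTAG 4 h replicate 1, 4 h replicate 2, 8 h replicate 1 and 8 h replicate 2. HIST1H2BD had 6.05 and 6.25 CPM at 8 h and 17.5 and 16.7 CPM at 4 h with dTAG (-1.47 ± 0.26, adjusted p = 0.00135). HIST1H3C had 2.33 and 1.88 CPM at 8 h and 6.99 and 9.41 CPM at 4 h with dTAG, against 6.49 and 4.76 CPM at 8 h and 6.92 and 4.84 CPM at 4 h with DMSO. Histone genes are near-identical copies of each other, so the assignment of reads to single members is uncertain, and the converted shares of these 2, 1.38% to 2.74%, lay near those of the lowest genes.

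**Figure D3:**
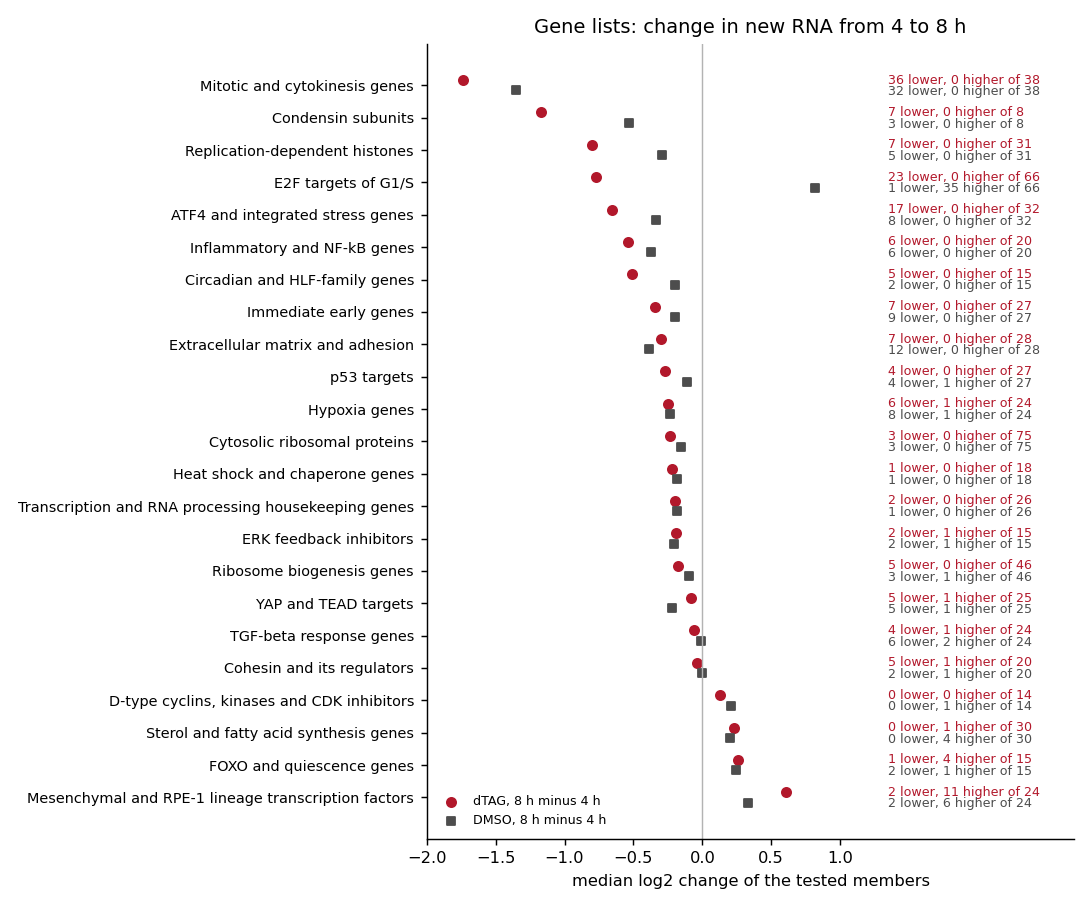
Median log2 change in new RNA from 4 to 8 h of the tested members of 23 gene lists (horizontal axis), with dTAG as circles and DMSO as squares, and the number called lower and higher of the number tested at the right. The E2F targets stand on opposite sides of 0 with dTAG and DMSO in converted reads, though not in all reads, and mitotic genes have the lowest medians. With library sizes from all reads all medians move up by about the shift of all genes, 0.44 with dTAG, and those dTAG medians that lie less than this below 0 turn positive.

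Immediate early and inflammatory genes, which growth factors and cytokines induce within minutes, were among the largest falls. ATF3, a stress-induced transcription factor at chr1:212565334-212620777 on the plus strand, had 62.1 and 64.1 CPM at 4 h, 24.0 and 19.4 CPM at 6 h, and 8.14 and 5.84 CPM at 8 h with dTAG. It fell by 3.18 ± 0.20 with dTAG (adjusted p = 2.80e-07) and by 2.34 ± 0.19 with DMSO (adjusted p = 1.09e-06). FOSB, a partner of JUN, had 3.02 and 1.46 CPM at 8 h and 20.7 and 24.6 CPM at 4 h with dTAG (-3.34 ± 0.39, adjusted p = 4.26e-05), and EGR1 had 9.77 and 13.3 CPM at 8 h and 51.1 and 35.8 CPM at 4 h (-1.91 ± 0.34, adjusted p = 0.00140). The 4 h and 8 h groups did not overlap for any of the 3. That held for 862 of the 863 genes called lower and was a condition for naming ATF3. In the list of 27 tested immediate early genes, 7 fell and 0 rose with dTAG, at a median of -0.34 that was 0.11 with library sizes from all reads, where 5 fell and 3 rose. The count of 7 was 4 without dTAG 4 h replicate 1, 4 h replicate 2 or 8 h replicate 2. With DMSO 9 fell and 0 rose.

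PTGS2, the inducible cyclooxygenase, had 40.6 and 33.7 CPM at 4 h, 17.7 and 9.85 CPM at 6 h, and 5.12 and 4.79 CPM at 8 h with dTAG (-2.91 ± 0.29, adjusted p = 9.85e-06). CXCL8, the chemokine interleukin-8, had 12.6 and 8.75 CPM at 8 h and 68.3 and 46.3 CPM at 4 h (-2.44 ± 0.32, adjusted p = 0.000124). RGS2, a brake on G-protein signalling, had 6.51 and 6.04 CPM at 8 h and 47.3 and 36.6 CPM at 4 h (-2.74 ± 0.28, adjusted p = 1.10e-05). All 3 also fell with DMSO, by 2.37, 3.34 and 2.90. Relative to all reads of the same gene the changes with dTAG of ATF3, PTGS2, CXCL8 and RGS2 were 0.15, 0.32, 0.44 and 0.17 and none passed, and in all reads they were -3.46, -3.36, -3.00 and -3.04. In the list of 20 tested inflammatory and NF-kB genes, 6 fell and 0 rose with each treatment, at a median of -0.54 with dTAG, and with library sizes from all reads 2 fell. The count of 6 was 2 without dTAG 4 h replicate 1, 3 without 4 h replicate 2 and 3 without 8 h replicate 2.

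Of 15 feedback inhibitors of ERK signalling, 2 fell and 1 rose with dTAG, counts near the share called among all genes (5.92% lower and 6.25% higher), at a median of -0.19 that was 0.26 with library sizes from all reads, where 1 fell and 4 rose. Without dTAG 4 h replicate 1, 4 h replicate 2 or 8 h replicate 2, 1 fell. DUSP4, a phosphatase of nuclear ERK, had 116 and 138 CPM at 8 h and 52.7 and 54.7 CPM at 4 h with dTAG (1.25 ± 0.16, adjusted p = 8.94e-05) and rose by 1.31 with DMSO. ERRFI1, an inhibitor of the EGF receptor at chr1:8004404-8026308 on the minus strand, had 114 and 85.7 CPM at 8 h and 250 and 234 CPM at 4 h with dTAG, against 331 and 296 CPM at 8 h and 383 and 341 CPM at 4 h with DMSO. It fell by 1.28 ± 0.16 with dTAG (adjusted p = 7.57e-05) and did not pass with DMSO (-0.21). The difference of -1.07 ± 0.22 passed (adjusted p = 0.0335), as the 1 difference called in this list. That call was lost on other scales: 0 of the 15 passed with library sizes from all reads, and 0 in all reads. The change of ERRFI1 with dTAG relative to all reads of the gene was of the other sign and passed (0.38, adjusted p = 0.0223).

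**Figure D4:**
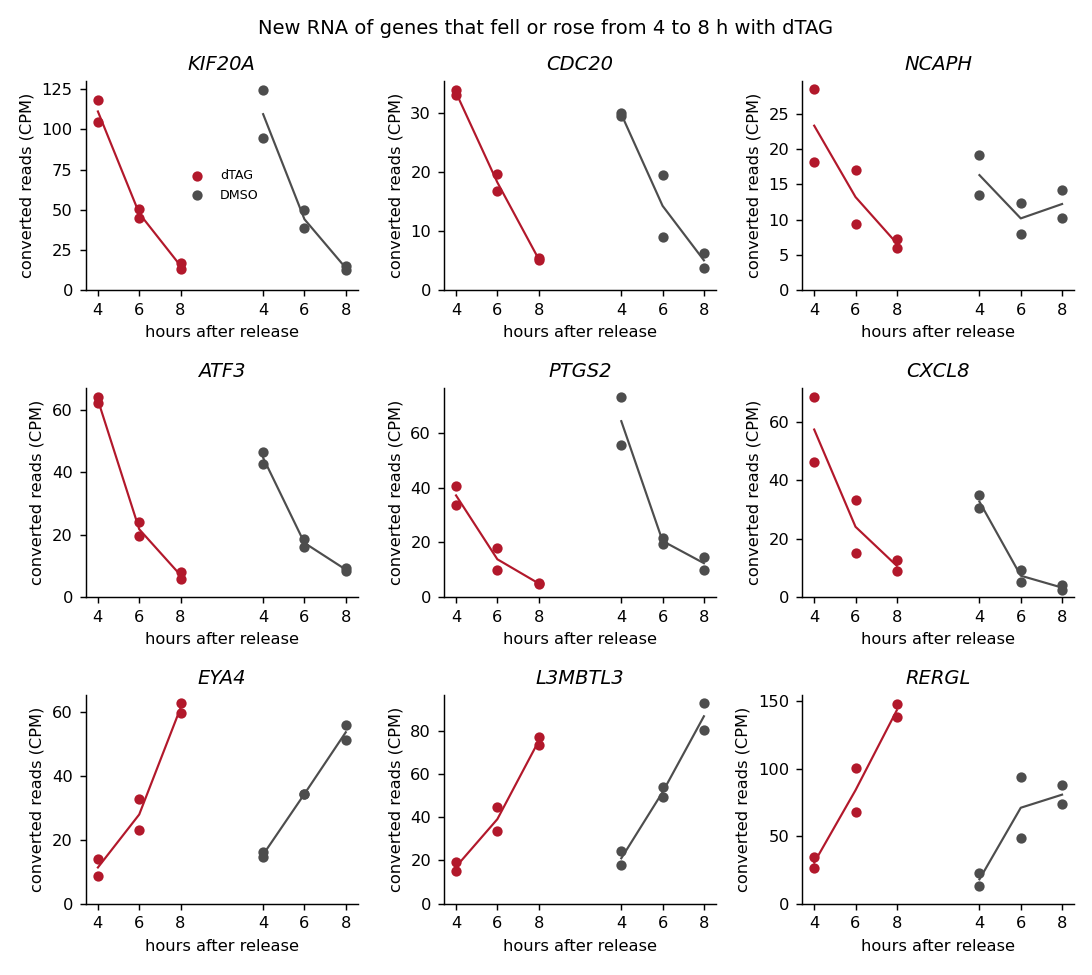
Converted reads (CPM, vertical axes) of 9 genes at 4, 6 and 8 h after release, 1 point per library and lines through the means of 2, with dTAG on the left and DMSO on the right of each panel. KIF20A, CDC20, ATF3, PTGS2 and CXCL8 fell with both treatments, NCAPH fell past the test with dTAG, and EYA4, L3MBTL3 and RERGL rose with both.

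Genes of amino acid supply and the integrated stress response fell with dTAG. Of 32 tested ATF4 and integrated stress genes, 17 fell and 0 rose, at a median of -0.66, and with DMSO 8 fell and 0 rose, at a median of -0.34. The direct test of the difference passed for 0 of the 32 with edgeR, and with DESeq2 for 0. ASNS, asparagine synthetase, had 107 and 76.3 CPM at 8 h and 194 and 192 CPM at 4 h with dTAG (-1.08 ± 0.16, adjusted p = 0.000264). SESN2, a leucine sensor upstream of mTORC1 at chr1:28259527-28282491 on the plus strand, had 99.3 and 82.7 CPM at 8 h and 225 and 203 CPM at 4 h (-1.24 ± 0.21, adjusted p = 0.00103). SLC7A1, an arginine transporter, had 266 and 209 CPM at 8 h and 516 and 420 CPM at 4 h (-0.98 ± 0.15, adjusted p = 0.000440). CHAC1, which degrades glutathione, fell by 1.65 ± 0.39 (adjusted p = 0.00979), a call lost without dTAG 4 h replicate 1 (0.112) or 8 h replicate 2 (0.0799).

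Relative to all reads of the same gene, 17 of the 32 fell and 0 rose with dTAG, but these were not all the genes counted above: SESN2 (-0.22, adjusted p = 0.109) and CHAC1 (-0.27, adjusted p = 0.609) did not pass on that scale. ASNS had 3.75% of its reads converted at 8 h and 6.19% at 4 h with dTAG. The count of 17 was 3 with library sizes from all reads, at a median of -0.20, 11 without dTAG 4 h replicate 1 and 9 without 8 h replicate 2. With dTAG 5.92% of all genes were called lower. Of 27 tested p53 targets, 4 fell and 0 rose with dTAG, SESN2 among them, at a median of -0.27 that was 0.16 with library sizes from all reads. That count was 2 without dTAG 4 h replicate 1, 4 h replicate 2 or 8 h replicate 1.

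The genes that rose were long. Their median span in hg38 was 102 kb, against 36.0 kb for genes that fell and 34.6 kb for all tested genes, and 50.6% of them spanned over 100 kb, against 24.2% and 22.5%. In 5 groups of equal size by span, the share that rose was 0.549%, 2.40%, 4.53%, 9.30% and 14.5% from the shortest to the longest, while the share that fell was 7.0%, 5.01%, 5.32%, 5.66% and 6.62%. With DMSO the genes that rose had a median span of 79.6 kb and those that fell 37.3 kb, and the shares that rose in these groups were 0.961%, 3.50%, 6.49%, 9.40% and 12.6%. The rise in called share with span was thus present with both treatments. Genes on pseudogene loci made up 9.73% of those that fell and 6.07% of all tested. A converted share can also be unusually high: KIF4B, among the 12 largest falls, had 53.6% converted reads at 8 h and 71.7% at 4 h with dTAG. Genes with at least 1000 reads had medians of 4.98% to 8.02% in the dTAG libraries of these times. How much of such counts came from 4sU was not tested. The median log2 CPM was 5.22 for genes that rose, 5.51 for genes that fell and 4.38 for all tested genes, and the part of the level in the pattern was not tested.

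**Figure D5:**
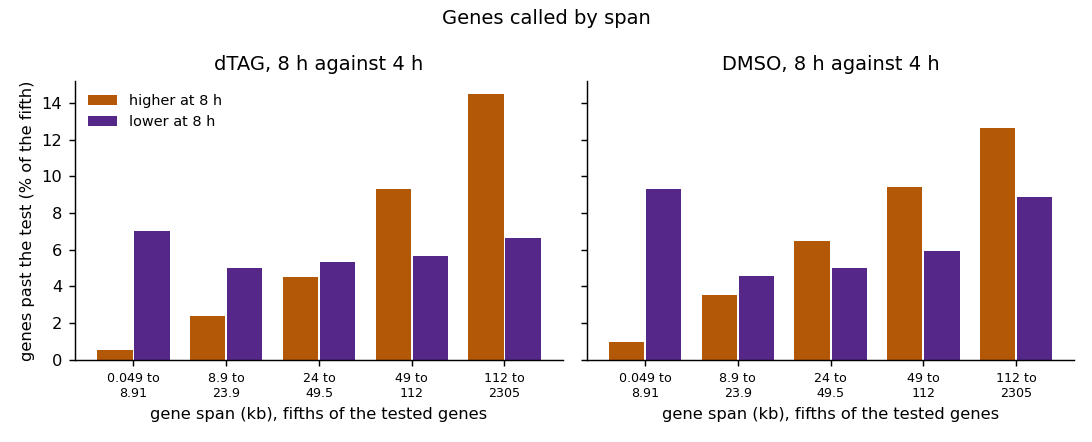
Share of tested genes called higher or lower at 8 h (vertical axis, %) in 5 groups of equal size by gene span in kb, with dTAG in the left panel and DMSO in the right. The share called higher climbs from 0.549% in the group of shortest genes to 14.5% in that of the longest with dTAG, whereas the share called lower stays between 5.01% and 7.0%.

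EYA4, a transcriptional co-activator and phosphatase of development at chr6:133240598-133532120 on the plus strand, had 14.0 and 8.69 CPM at 4 h, 23.0 and 32.7 CPM at 6 h, and 62.6 and 59.6 CPM at 8 h with dTAG. It rose by 2.39 ± 0.21 with dTAG (adjusted p = 3.87e-06) and by 1.79 ± 0.19 with DMSO (adjusted p = 1.92e-05), a difference of 0.60 that did not pass. L3MBTL3, a reader of methylated lysines, had 77.2 and 73.1 CPM at 8 h and 15.1 and 19.2 CPM at 4 h with dTAG (2.15 ± 0.20, adjusted p = 4.87e-06). NRG2, a neuregulin ligand of ErbB receptors, had 21.9 and 19.6 CPM at 8 h and 3.76 and 3.26 CPM at 4 h (2.54 ± 0.32, adjusted p = 7.56e-05). To be named by the rule, these 3 had to have both 8 h libraries clear of both 4 h libraries, as all 911 called rises did.

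SMAD9, a receptor-activated SMAD of the BMP pathway, had 29.8 and 27.3 CPM at 8 h and 8.34 and 5.07 CPM at 4 h with dTAG (2.05 ± 0.26, adjusted p = 7.97e-05). SMAD6, an inhibitory SMAD of the same pathway, had 33.5 and 35.6 CPM at 8 h and 11.6 and 10.1 CPM at 4 h (1.66 ± 0.22, adjusted p = 9.76e-05), and CABLES1, an adaptor of cyclin-dependent kinases, had 30.0 and 28.1 CPM at 8 h and 9.95 and 6.88 CPM at 4 h (1.76 ± 0.21, adjusted p = 4.95e-05). All 3 also rose with DMSO, by 1.44, 1.66 and 1.33. RERGL, a Ras-like protein, had 139 and 148 CPM at 8 h and 26.6 and 34.4 CPM at 4 h with dTAG (2.25 ± 0.28, adjusted p = 7.27e-05). Its all reads grew faster than its converted reads, so that its converted share was 6.42% at 8 h and 8.72% at 4 h and its change relative to all reads was -0.82 (adjusted p = 0.00629). The other rises named by the same rule were NDRG4, SLC22A23, KIAA1211, SEMA3D, RPH3AL and CPNE8, with log2 changes of 2.14, 2.05, 1.86, 1.86, 1.86 and 1.82.

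In a list of mesenchymal and RPE-1 lineage transcription factors, more members rose than fell with dTAG. Of 24 tested, 11 rose and 2 fell, at a median of 0.61, and with DMSO 6 rose and 2 fell, at a median of 0.33. The direct difference passed for 0 of the 24 with edgeR and for 1 with DESeq2. Factors among the retinal pigment epithelium markers moved both ways in CPM with dTAG. Of the 6 tested markers only 1 was called higher and 1 lower, so OTX2 and PAX6 did not both pass as rises. The CPM of these markers use plain library totals, unlike those of the other named genes. MITF had 292.6 and 285.8 CPM at 8 h and 380.1 and 388.5 CPM at 4 h. OTX2 had 40.2 and 35.6 CPM at 8 h and 23.0 and 23.7 CPM at 4 h, and PAX6 62.2 and 57.9 CPM at 8 h and 50.5 and 47.0 CPM at 4 h. Both list members described next rose. RUNX2, the driver of bone formation, had 160 and 159 CPM at 8 h and 88.2 and 89.4 CPM at 4 h (0.85 ± 0.14, adjusted p = 0.00102). TFAP2A, a neural crest and epithelial factor, rose by 0.83 ± 0.18 (adjusted p = 0.00725), a call lost without dTAG 4 h replicate 1 (0.135) or 8 h replicate 2 (0.105). The count of 11 was 6, 5 and 4 without dTAG 4 h replicate 1, 4 h replicate 2 and 8 h replicate 1, and in all reads 2 members rose.

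The extracellular matrix list gave falls and no rise on the scale of converted reads. For the dTAG counts of this and the next lists, 5.92% of all genes were called lower and 6.25% higher. Of 28 tested extracellular matrix and adhesion genes, 7 fell and 0 rose with dTAG and 12 fell and 0 rose with DMSO, at a dTAG median of -0.30 that was 0.14 with library sizes from all reads, where 2 fell and 4 rose. HAS2, a hyaluronan synthase, had 4.65 and 4.58 CPM at 8 h and 12.6 and 19.6 CPM at 4 h with dTAG (-1.77 ± 0.29, adjusted p = 0.000823), although its change relative to all reads of the gene was 1.21 (adjusted p = 0.0273). COL6A3, a chain of collagen VI, had 88.4 and 61.1 CPM at 8 h and 195 and 137 CPM at 4 h (-1.16 ± 0.22, adjusted p = 0.00210), a call lost without dTAG 4 h replicate 1 (0.0545). That list's count of 7 was 3 without dTAG 4 h replicate 1 and 4 without 8 h replicate 2. Of 25 tested YAP and TEAD targets, 5 fell and 1 rose, at a median of -0.08 that was 0.35 with library sizes from all reads, and the count of 5 was 3, 1, 1 and 1 without dTAG 4 h replicate 1, 4 h replicate 2, 8 h replicate 1 and 8 h replicate 2. The member that rose was RBMS3, an RNA-binding protein, with 475 and 406 CPM at 8 h and 183 and 184 CPM at 4 h (1.26 ± 0.18, adjusted p = 0.000252). Of 24 tested TGF-beta response genes, 4 fell and 1, SMAD6, rose, at a median of -0.06 that was 0.39 with library sizes from all reads, and 0, 1, 2 and 0 fell in the same 4 fits.

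The 25 genes whose change was higher with dTAG than with DMSO had a median span of 156 kb, and 20 of them fell with DMSO, 11 rose with dTAG and 3 fell with dTAG. TRPC4, a calcium-permeable channel at chr13:37636636-37870425 on the minus strand, had 44.2 and 30.0 CPM at 8 h and 19.4 and 14.8 CPM at 4 h with dTAG, against 46.0 and 36.9 CPM at 8 h and 90.3 and 108 CPM at 4 h with DMSO. The levels of the 2 treatments overlapped at 8 h and stood apart at 4 h. Its difference was 2.35 ± 0.30 (adjusted p = 0.00101). MAP2, a microtubule-associated protein, had 97.7 and 89.6 CPM at 8 h and 113 and 88.0 CPM at 4 h with dTAG, against 52.4 and 48.3 CPM at 8 h and 146 and 157 CPM at 4 h with DMSO (difference 1.48 ± 0.20, adjusted p = 0.00140). MAP2 did not pass with dTAG alone (-0.11), and its 6 h libraries had 68.3 and 67.6 CPM with dTAG.

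ADAMTS14, a protease that trims procollagen, had 24.7 and 29.6 CPM at 8 h and 8.61 and 11.2 CPM at 4 h with dTAG, against 10.6 and 11.8 CPM at 8 h and 12.4 and 12.7 CPM at 4 h with DMSO (difference 1.63 ± 0.31, adjusted p = 0.0187). ADAMTS6, a related secreted protease, had 380 and 344 CPM at 8 h and 287 and 278 CPM at 4 h with dTAG, against 983 and 956 CPM at 8 h and 1531 and 1842 CPM at 4 h with DMSO (1.16 ± 0.21, adjusted p = 0.0143). IKZF2, a zinc-finger factor of lymphoid cells, had 74.2 and 60.2 CPM at 8 h and 49.5 and 44.5 CPM at 4 h with dTAG, against 53 and 49.7 CPM at 8 h and 82.1 and 83.7 CPM at 4 h with DMSO (1.2 ± 0.20, adjusted p = 0.00855). SLC22A3, an organic cation transporter, rose with dTAG (1.53 ± 0.20) and did not pass with DMSO (0.28), a difference of 1.25 ± 0.26 (adjusted p = 0.0350). TRPC4 and MAP2 kept their call when any 1 of the 8 libraries at 4 and 8 h was left out. TRPC4 lost it relative to all reads of the gene (0.42, adjusted p = 0.861), and MAP2 lost it in all reads (0.75). The other 4 lost it without at least 2 of the 8 taken singly and with library sizes from all reads, at adjusted p of up to 0.229 and up to 0.205.

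Of 75 tested cytosolic ribosomal protein genes 3 fell and 0 rose with dTAG, near the 5.92% called lower among all genes, at a median of -0.24 that was 0.20 with library sizes from all reads. The count of 3 was 1, 1, 0 and 1 without dTAG 4 h replicate 1, 4 h replicate 2, 8 h replicate 1 and 8 h replicate 2. RPL27 was called on 1 library: it had 43.5 and 54.6 CPM at 8 h and 44.1 and 353 CPM at 4 h, and its log2 change of -1.99 was 0.15 without dTAG 4 h replicate 2 and did not pass with DESeq2. Of 46 ribosome biogenesis genes 5 fell and 0 rose, at a median of -0.18 that was 0.26 with library sizes from all reads. That count was 3, 1, 2 and 1 without dTAG 4 h replicate 1, 4 h replicate 2, 8 h replicate 1 and 8 h replicate 2. Of 18 heat shock genes 1 fell, again near the 5.92% called lower among all genes. It did not pass without dTAG 4 h replicate 2 or 8 h replicate 1. The heat shock and housekeeping medians were -0.22 and -0.20, and 0.23 and 0.24 with library sizes from all reads. Of 26 housekeeping genes of transcription and RNA processing 2 fell, also near that share. The count of 2 was 1, 0, 1 and 3 in the same 4 fits.

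Of 30 sterol and fatty acid synthesis genes 1 rose with dTAG and 4 with DMSO. Among all genes 6.25% were called higher and 5.92% lower with dTAG, and 6.6% were called higher with DMSO. The single rise was lost without 4 h replicate 1, 4 h replicate 2 or 8 h replicate 1, and with library sizes from all reads 12 rose with dTAG. Of 24 hypoxia genes 6 fell and 1 rose, at a median of -0.25 that was 0.20 with library sizes from all reads, where 0 fell and 2 rose. Of 15 circadian genes 5 fell and 0 rose, at a median of -0.51, among them the clock repressor PER2 (-1.28 ± 0.28, adjusted p = 0.00663). On the scale of all reads as library size, 2 of these 15 fell and 3 rose, at a median of -0.07. PER2 lost its call without dTAG 4 h replicate 1 or 8 h replicate 1, and 0, 3, 1 and 2 fell without dTAG 4 h replicate 1, 4 h replicate 2, 8 h replicate 1 and 8 h replicate 2. Of 15 FOXO and quiescence genes 4 rose and 1 fell, at a median of 0.26. INSR, the insulin receptor, had 31.2 and 40.2 CPM at 8 h and 18.8 and 10.9 CPM at 4 h with dTAG (1.23 ± 0.23, adjusted p = 0.00191) and rose by 1.32 with DMSO. That count of 4 was 1, 2, 1 and 2 in the same 4 fits.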

How the data were processed

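Per the submitters' processing notes, reads were treated with HISAT, Picard and HTSeq on hg38; the order, versions and options are not given in the sources used here. The deposited files give, per the file headers, whole-number counts of converted reads, of all reads and of T positions per gene, and a conversion rate that is a fraction of T. They list only genes with reads, so an unlisted gene was taken as 0. Of 44565 genes listed, 123 were removed for lying on chromosome Y or near the centre of X inactivation. Listed starts were raised by 1 base.

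Counts of converted reads in 12 libraries, in 6 groups of 2, were fitted together (edgeR 4.0.16 in R 4.3.3, quasi-likelihood, TMM factors 0.922 to 1.05, common biological coefficient of variation 0.118, 6 residual degrees of freedom), two-sided, with Benjamini-Hochberg adjustment over 14570 genes passing filterByExpr (minimum count 10, total 15). On simulated data for dTAG 8 h against 4 h, 100 genes were changed by 1 on the log2 scale and 100 by 2. They were drawn from genes with a mean log2 CPM of at least 3. Among 14211 tested, 77% and 98% of them were recovered, with 19 false calls. Recovery of genes with fewer converted reads was not tested. Replicates differed by more than counting noise (chi-square per degree of freedom 2.83 to 7.93).

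Named genes were the 12 largest rises and falls with dTAG and the 6 largest differences of each sign. Up to 4 called members per list and NIPBL were added. Rises, falls and differences needed a call at an adjusted p of 0.05, a mean log2 CPM of at least 3 and no clone name. For rises and falls, both 8 h libraries also had to lie on the same side of both 4 h libraries. The text gives a selection. Members, lists and rules were chosen with earlier results of these data known. Alternatives were DESeq2 1.42.0 size factors and test, no low-count filter, a block for the replicate number, counts of all reads, library sizes from all reads, converted reads relative to all reads of a gene, each treatment fitted by itself, a minimum log2 change of 1 in size, and omission of each library. Other tools were limma 3.58.1, Python 3.11.15, pandas 2.3.3, scipy 1.17.1 and matplotlib 3.10.9.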

Additional observations from a re-analysis of the deposited data

Results flagged for a closer look

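The change from 4 to 8 h differed between dTAG and DMSO, by a direct test of the difference, for 83 genes. Groups of 2 libraries are too small to test a single library for standing apart. Among genes described above, the difference in log2 change (dTAG minus DMSO) was -3.28 for MND1, -3.27 for DTL, -2.99 for XRCC2, -2.80 for WDR76, -2.74 for BRIP1, -1.98 for MCM4 and -1.07 for ERRFI1. It was 2.35 for TRPC4, 1.63 for ADAMTS14, 1.48 for MAP2, 1.25 for SLC22A3, 1.2 for IKZF2 and 1.16 for ADAMTS6.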

How the results depend on the processing

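Counts of called genes are given here for 8 h against 4 h with dTAG, 6 h against 4 h with dTAG, 8 h against 6 h with dTAG, 8 h against 4 h with DMSO, and the difference dTAG minus DMSO, in that order where all are given. They were 1774, 317, 145, 1941 and 83. DESeq2's size factors kept all 5 within 1.5 times. Library sizes from all reads gave 3684, 185, 2161, 6717 and 82. All reads gave 98, 70 and 17 for the first step, the second step and the difference, and converted reads relative to all reads of the gene gave 777, 113, 4 and 16 for the dTAG comparisons and the difference. Without a low-count filter 670, 668 and 226 were called for both steps and the difference. With the replicate number as a block the steps gave 530 and 387 and the difference 144. The labels do not pair the libraries, and same-numbered dTAG libraries at 4 and 8 h deviated together with a correlation of 0.276, 4 and 6 h of 0.141, and 6 and 8 h of -0.00201. The dTAG libraries alone gave 536 and 427 for the steps, DESeq2's test 253 for the second step, and an absolute log2 change of at least 1 gave 689, 128, 54 and 694 for the first 4 comparisons. Leaving out 1 library gave 769 to 1005, 53 to 151, 0 to 110, 748 to 1802 and 26 to 91, at 1 sample in a group, which is assumed to vary like the others. For the 0 in the second step, without dTAG 6 h or 8 h replicate 1, edgeR had 1206 and 1377 genes at an unadjusted p under 0.05. The difference in converted share was 1.17 to 2.78 points.

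Of 68 gene results, 63 were called. Relative to all reads of the gene the sign turned for RERGL (-0.82, which passed), RBMS3 (-0.0262), ATF3 (0.15), PTGS2 (0.32), RGS2 (0.17), CXCL8 (0.44), SGO1 (0.13), DTL (0.26), HAS2 (1.21, which passed), THBS1 (0.0387), TRAF1 (0.54), ERRFI1 (0.38, which passed), PER2 (0.47) and the difference of IKZF2 (-0.36), in all reads for ELOVL6 (-0.10), and without dTAG 4 h replicate 2 for RPL27 (0.15), whose change was -2.84 without 4 h replicate 1. The causes of these moves were not tested. Depth limits the genes with few converted reads, such as CCNE2, CDT1 and E2F1.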
